A study of Mus musculus with 12 samples.

Results

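CTCF HiChIP was compared with Hi-C in neuronal committed cells (NCC), to find which loci and which contact distances an antibody against CTCF enriches after retinoic acid. The comparison rests on 4 of the 12 samples of the series, 2 of CTCF HiChIP and 2 of Hi-C, chosen by cell type and assay and read on the 19 autosomes. NCC were made from E14Tg2A mouse embryonic stem cells (ESC) by 48 h in 1 µM retinoic acid without leukemia inhibitory factor, and ESC, grown with that factor and without retinoic acid, are the undifferentiated group. All cells were fixed with 1% formaldehyde, and HiChIP used antibody ab70303 from Abcam for CTCF and ab10646 for FGFR1. All groups share the E14Tg2A line, and contact data hold no RNA, so that the neural identity of NCC cannot be checked against marker genes here.

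CTCF is a zinc finger protein that binds a long, non-palindromic DNA motif and stops the ring-shaped cohesin complex as cohesin extrudes a chromatin loop. Because cohesin is stopped mainly when it meets the motif from its downstream side, loops known from other work tend to join motifs that point towards each other, which is called a convergent pair. Hi-C records contacts of all chromatin, while HiChIP adds an immunoprecipitation after ligation and so keeps the contacts in which an end carries the protein. A ratio of HiChIP over Hi-C above 1 marks DNA with a larger share of the HiChIP library than of the Hi-C library. In NCC this ratio fell as GC content rose, both with the CTCF antibody and with the FGFR1 antibody. The series holds no HiChIP with a control antibody, so that the part of the antibody in a ratio was not tested.

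The CTCF core consensus used here has 12 bases, of which positions 4, 5, 8 and 9, counted from its 5′ end, can each take either of a pair of bases. It occurs 12245 times on the autosomes of GRCm38, and 4.70% of all 10 kb bins hold it on either strand. The following motifs lie in bins that are described below as enriched in CTCF HiChIP, and are shown with 9 bases on each side. They are printed 5′ to 3′ on the strand of the motif from GRCm38, with the motif in capitals, and each is named for the gene whose start site is nearest.
Ggcx, chr6:72409770-72409781, minus strand: ccaggatccCCACTAGGTGGCgcagaactg
Plcd3, chr11:103102815-103102826, plus strand: cgtgggtttCCACCAGGGGGCgcgaggact
Top1mt, chr15:75679461-75679472, minus strand: tggccgtgtCCAGCAGGGGGCccactagcc
Zmynd8, chr2:165819681-165819692, plus strand: agtctgtagCCACTAGGTGGCagcattcaa
Slc7a12, chr3:14381758-14381769, minus strand: gctcgggtaCCAGCAGATGGCcgtaattgc
Slc7a12, chr3:14381905-14381916, plus strand: cctccgcagCCAGCAGAGGGCagcctgtct
All of these lie inside an anchor of CTCF HiChIP, and all but the motif near Ggcx also lie inside an anchor of Hi-C.

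The deposited score counts read pairs between 2 anchors, and both replicates of a group were merged, so that each group is 1 pooled library. No spread between replicates can be given, no test was made, and all intervals cover counting error only. NCC CTCF HiChIP held 1049415 autosomal read pairs in 836108 interactions, of which 86.4% had a score of 1, and NCC Hi-C held 21142644 read pairs. ESC CTCF HiChIP held 1210721 read pairs, ESC Hi-C 20643821 and NCC FGFR1 HiChIP 3177422. Anchors were called separately in each library from its own reads. The 165818 anchors of NCC CTCF HiChIP covered 441 Mb, with a median of 2248 bp, and the 243579 anchors of NCC Hi-C covered 918 Mb. A bin without an anchor therefore has no read pair in that library, whatever its true coverage.

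CTCF HiChIP was concentrated at the CTCF core motif. Of the 12245 motifs, 38.6% (95% Wilson interval 37.7 to 39.4%) lay inside an anchor of NCC CTCF HiChIP, whose anchors cover 18.4% of the autosomes. From the GC content of the bins, 20.7% would be covered, which makes the share 1.86 times as high. The same quotient was 1.23 in NCC Hi-C, 1.32 in NCC FGFR1 HiChIP and 1.76 in ESC CTCF HiChIP. A looser motif that leaves positions 4, 5, 8 and 9 free, searched on both strands and including all core motifs, had 134643 matches and a quotient of 1.19 in NCC CTCF HiChIP. CTCF anchors thus covered the full core motif more often than its base composition alone would give, and the looser form less so.

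Around the motifs, the share of CTCF HiChIP ends over the share of Hi-C ends was measured in steps of 2 kb and set against the same ratio 26 to 50 kb away. At the motif it was 1.63 times the ratio of the flanks (1.62 to 1.64), and it was 1.14 and 1.15 at 2 kb and 0.976 and 0.977 at 4 kb on either side. In ESC, which shares no library with NCC, the value at the motif was 1.45 (1.43 to 1.46). In FGFR1 HiChIP of NCC, divided by the same Hi-C library, it was 1.07 (1.06 to 1.07). Hi-C itself had 2.05 times the genome mean at the motifs and CTCF HiChIP 2.75 times. Both CTCF libraries thus peaked at the motif, and FGFR1 HiChIP stayed within 10% of its flanks.

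**Figure D1:**
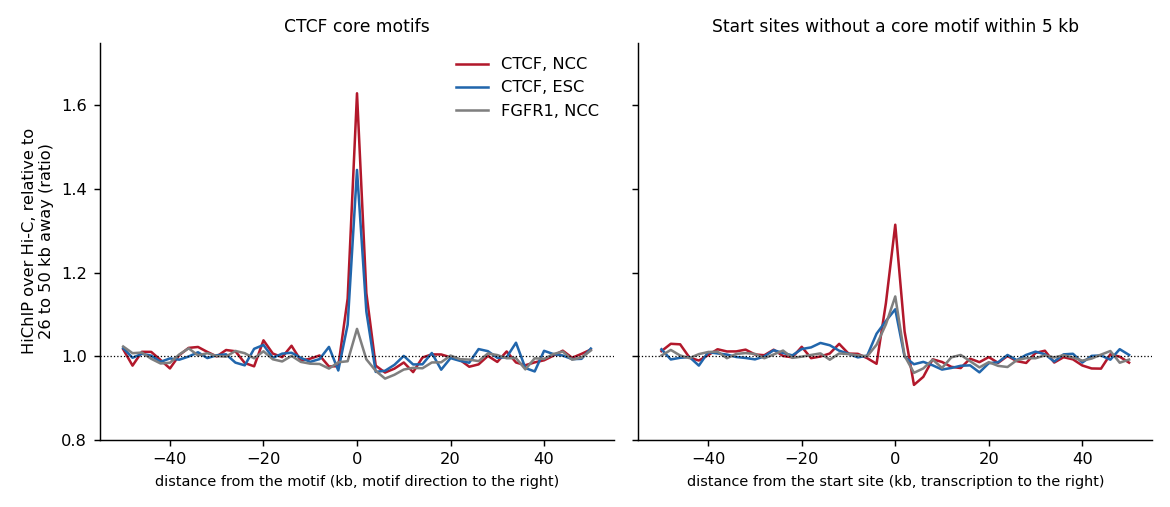
Share of ends in HiChIP over Hi-C in 2 kb steps around 12245 CTCF core motifs (left) and around 19153 protein-coding start sites without a core motif within 5 kb (right), relative to 26 to 50 kb away on the vertical axis. CTCF HiChIP reached 1.63 in NCC and 1.45 in ESC at the motif, FGFR1 HiChIP 1.07. At the start sites the values were 1.31, 1.11 and 1.14.

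The peak was present at motifs near genes and far from them. The 1537 motifs within 5 kb of a protein-coding start site had 1.72 times the ratio of their flanks (1.69 to 1.76), the 5058 motifs farther inside genes 1.57 (1.55 to 1.59), and the 5650 motifs between genes 1.65 (1.63 to 1.68). Start sites that have no core motif within 5 kb also stood out, with 1.31 in NCC CTCF HiChIP (1.31 to 1.32), 1.11 in ESC CTCF HiChIP and 1.14 in NCC FGFR1 HiChIP. Matches of the looser motif outside the core consensus had 1.12 in NCC and 1.13 in ESC. The core motif thus carried the higher value in both cell types, and the start sites a smaller one that was also present with the other antibody.

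The 16 forms of the core motif had different values. Intervals for them, and for all profiles around motifs and start sites, treat ends in the central 2 kb step as separate counts. Error of the flanks and spread between the sites of a form are not covered. The forms with the highest and the lowest values are shown, in lower case with positions 4, 5, 8 and 9 in capitals.
rank 1 of 16 in NCC: ccaCTagAGggc
rank 2 of 16 in NCC: ccaCCagGGggc
rank 14 of 16 in NCC: ccaGTagATggc
rank 15 of 16 in NCC: ccaGCagATggc
rank 16 of 16 in NCC: ccaCCagATggc
The 740 sites of the first form had 1.90 times the ratio of their flanks (1.84 to 1.97), and the 796 sites of the second had 1.90 as well (1.85 to 1.95). The forms with the lowest values had 1.39 (1.32 to 1.47, 523 sites), 1.33 (1.28 to 1.38, 824 sites) and 1.26 (1.20 to 1.32, 476 sites), and all of them have AT at positions 8 and 9. The other form with AT there had 1.67 (1.61 to 1.73, 635 sites), so that these bases did not go with a low value in every form. In ESC, the same 5 forms had 1.66, 1.65, 1.22, 1.14 and 1.22. Across the 16 forms, Spearman's rho between NCC and ESC was 0.87, as a description over 16 points that share the same sites. All 16 forms were above 1 in both cell types, with a range from 1.26 to 1.90 in NCC, while FGFR1 HiChIP ranged from 0.979 to 1.18.

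Single bases of the motif, with intervals of the same kind, went with smaller differences. Motifs with C at position 4 had 1.73 (1.709 to 1.751) and those with G 1.54 (1.52 to 1.56). At position 9, G went with 1.70 (1.69 to 1.72) and T with 1.52 (up to 1.54). At position 8, G went with 1.70 and A with 1.57, and at position 5, C and T were close, with 1.61 and 1.66. In ESC, C at position 4 and G at position 9 also had the higher value, 1.54 against 1.37 and 1.49 against 1.38.

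Over 10 kb bins, loci with more CTCF HiChIP than Hi-C were widespread. Of 246285 bins, 123762 had at least 100 Hi-C ends and were compared, with a median of 10 CTCF ends and 246 Hi-C ends. A bin was called enriched when its share of CTCF ends was at least 2 times its share of Hi-C ends and the lower bound of an exact binomial interval, with a miss rate of 0.1%, was above 1, and depleted when the reverse held. By this rule 10137 bins (8.19%) were enriched and 29450 (23.8%) depleted, against 8.25% and 22.9% in ESC and 9.63% and 32.1% for FGFR1 HiChIP, which shares the Hi-C library of NCC. Of the depleted bins, 83.4% held no CTCF anchor midpoint. Bins compared held 74.0% of the CTCF ends and 93.0% of the Hi-C ends. Their median ratio was 0.697, and 38599 of the 123762 had no CTCF end. Among bins with an anchor midpoint in both libraries the median was 1.10, and 10137 were enriched and 4901 depleted. With the median ratio scaled to 1, 20059 bins were enriched and 17018 depleted, so that the balance of the calls turned with the scaling. With Hi-C limited to read pairs in CTCF anchors, 1611 were enriched and 14303 depleted.

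GC content moved with the ratio in all 3 HiChIP libraries. In the lowest of 10 classes of GC content, up to 39.1%, the share of CTCF ends was 1.10 times that of Hi-C ends, and in the highest, from 49.8%, it was 0.612 times. The ratio fell at every step between them. In ESC it fell from 1.06 to 0.658, and in FGFR1 HiChIP of NCC from 1.19 to 0.476. Its part in the calls was not tested. With each bin divided by the ratio of its class among 50 classes of GC content, 14636 bins (11.8%) were enriched and 22939 (18.5%) depleted in NCC, against 11.3% and 19.2% in ESC.

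**Figure D2:**
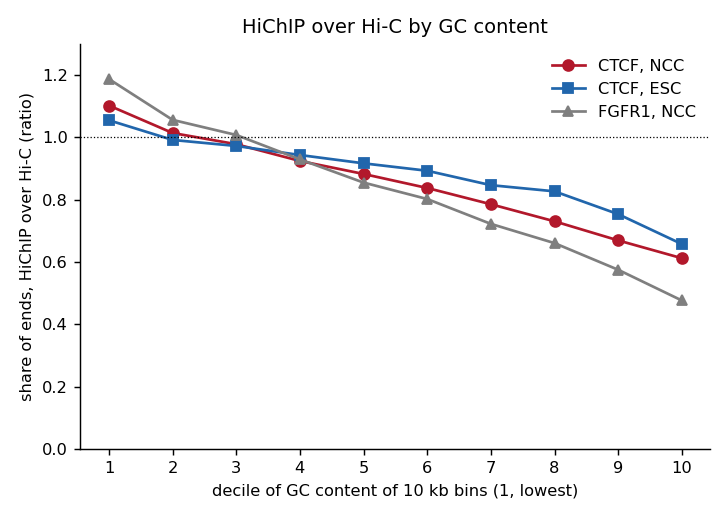
Share of ends in HiChIP over Hi-C (vertical axis, ratio) in 10 classes of GC content of 10 kb bins (horizontal axis, lowest to highest). CTCF HiChIP of NCC falls from 1.10 to 0.612, CTCF HiChIP of ESC from 1.06 to 0.658 and FGFR1 HiChIP of NCC from 1.19 to 0.476.

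Bins with a core motif were higher than bins without, and more so at matched GC content. Motif bins are richer in GC (46.3% against 44.1%). Their ratio was higher by 0.15 on the log2 scale (0.14 to 0.16), and by 0.30 within GC classes, which is 1.23 times. In bins with 2 or more motifs the difference was 0.31, and 0.53 within GC classes, which is 1.45 times. In ESC the values within GC classes were 0.22 and 0.51, and in FGFR1 HiChIP of NCC 0.04 and 0.11. Of all bins compared, 6.93% held a core motif, against 8.51% of the enriched and 6.66% of the depleted bins. Among the bins enriched after division by the GC class, 10.3% held one. Where a bin had an anchor midpoint in both libraries the sign was turned, at -0.03, and it was 0.15 there within GC classes. The higher value without regard to GC content was thus not present among bins with an anchor in both libraries.

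Bins with a protein-coding start site were also higher, by 0.16 (0.15 to 0.16) and by 0.36 within GC classes. In ESC these values were 0.07 and 0.23, and in FGFR1 HiChIP -0.10 and 0.21. Start-site bins made up 11.5% of the bins compared, 13.7% of the enriched and 11.1% of the depleted ones. Without bins that hold a CpG island, the stretches of dense CpG found at many promoters, the NCC difference was -0.04, and among bins with an anchor midpoint in both libraries it was -0.05. In both of these settings its sign was turned.

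The 20 loci with the highest lower bound had 53 to 127 CTCF ends and 7.47 to 13.9 times their Hi-C share. Among them 4 held a core motif, 5 held a protein-coding start site and 10 were enriched in ESC as well. Of all bins compared, 6.93% held a core motif and 11.5% a start site, and 8.25% of those compared in ESC were enriched there. With FGFR1 HiChIP over the same Hi-C library 11 of the 20 were enriched too, at a median ratio of 2.70, where 9.63% of all bins were. All are single bins or pairs of bins with 101 to 328 Hi-C ends, and 16 of the 20 had under 200. Over 30 kb, the bin with its neighbours, the ratio was at most 5.59, and at least 2 at 13 of the 20. At 5 of the 20, ESC Hi-C had at least 2 times the Hi-C ends of NCC in the same bin.

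First by its lower bound was chr6:72400001-72410000, 4308 bp from the start of Ggcx, which encodes the vitamin K-dependent gamma-glutamyl carboxylase. It had 127 CTCF ends where 9.83 were expected from Hi-C, a ratio of 12.9 (7.65 to 17.4), and 2.64 over 30 kb. In ESC the ratio was 2.75, and FGFR1 HiChIP had 0.941. The bin is the one whose motif, shown above, lies outside every Hi-C anchor.

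A bin at chr11:103100001-103110000 holds the starts of Plcd3, a phospholipase C, and Acbd4. It had 86 CTCF ends against 7.05 expected, a ratio of 12.2 (6.70 to 17.8), with 6.41 in ESC. FGFR1 HiChIP had 4.73 there, and over 30 kb the CTCF ratio was 1.44. The bin at the start of Top1mt, the mitochondrial topoisomerase, at chr15:75670001-75680000 had 106 against 14.2, a ratio of 7.47, with 1.22 in ESC and 0.721 in FGFR1 HiChIP. Of the 4 loci with a motif, 3 were enriched in ESC, and the one at Top1mt was not. Hi-C had 1087 ends in the Top1mt bin in ESC against 286 in NCC, and CTCF HiChIP 78 against 106.

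Loci without a motif included the start of the odorant receptor gene Olfr94, with 82 ends against 5.91 and the highest ratio of the 20, 13.9 (6.63 to 19.6). It was 8.25 in ESC, 3.58 in FGFR1 HiChIP and 4.70 over 30 kb. The start of Kdm3b, a histone demethylase gene, had 125 ends against 16.3, a ratio of 7.68 with 3.62 in ESC and 0.710 in FGFR1 HiChIP. Bins inside Smchd1, a chromatin protein of X inactivation, and inside Stag1, a subunit of cohesin, had 10.6 and 9.14, with 4.72 and 2.16 in ESC and 1.751 and 3.22 in FGFR1 HiChIP. A bin inside Entpd1 had 12.97, but 0.501 in ESC, whose Hi-C had 783 ends there against 132 in NCC. FGFR1 HiChIP had 3.98 there. Both NCC ratios at the Entpd1 bin divide by the same 132 Hi-C ends, so that they are not independent of each other. CTCF ends there numbered 85 in NCC and 23 in ESC.

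**Figure D3:**
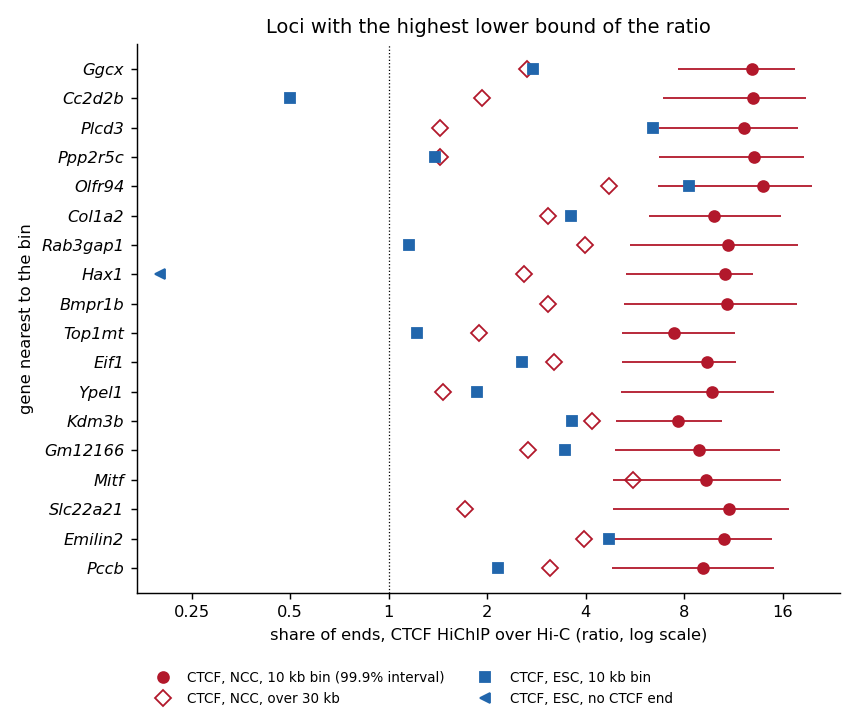
Share of CTCF HiChIP ends over that of Hi-C ends (horizontal log axis) at 18 of the 20 loci with the highest lower bound, named for the gene with the nearest start site. Filled circles with exact counting intervals are the 10 kb bins in NCC (7.47 to 13.9), open diamonds the same loci over 30 kb (1.43 to 5.59), squares the same bins in ESC where Hi-C had at least 100 ends there, and the triangle a bin without CTCF ends in ESC.

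Enriched bins were shared with ESC more often than the ESC calls over all bins. Of 101400 bins compared in both cell types, 8487 were enriched in NCC and 8628 in ESC, and 1569 in both. That is 18.5% of the NCC bins and 18.2% of the ESC bins, where 8.51% of all these bins were enriched in ESC. With division by GC class, 2856 bins were shared, 22.4% of the NCC and 23.4% of the ESC bins, where 12.02% of all were enriched in ESC. Depleted bins were shared in 35.7% of the NCC bins against 24.05% over all. At most of the NCC bins enrichment was thus not called in ESC.

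Among the shared bins with the highest lower bounds after division by GC class, the bin inside Zmynd8, a chromatin reader, at chr2:165810001-165820000 had 90 ends, a ratio of 8.28 in NCC and 7.12 in ESC, and the motif shown above. FGFR1 HiChIP had 4.01 there, and the CTCF ratio over 30 kb was 1.11. A bin at chr3:14380001-14390000, 90697 bp from the start of Slc7a12, had 67 ends and ratios of 8.71 in NCC and 8.98 in ESC, with 9.23 over 30 kb and 2.23 in FGFR1 HiChIP. Its pair of motifs, shown above, point away from each other. The bin inside Ncs1, neuronal calcium sensor 1, at chr2:31290001-31300000 had 124 ends and ratios of 4.23 and 12.9. Its core motif, not among those shown, lies inside an anchor of Hi-C but outside those of CTCF HiChIP in NCC. The Slc7a12 bin is the one of these 3 whose ratio did not fall over 30 kb.

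To set aside where anchors were called, regions with an anchor in both libraries were also compared, a choice made after the bins had been seen. There were 116317 such regions, with 85.6% of the CTCF ends and 62.7% of the Hi-C ends, and 80797 had at least 100 Hi-C ends. Of these, 3199 (3.96%) were enriched and 6597 (8.16%) depleted. Shares were taken here over the ends in such regions alone, and not over library totals as for the bins, which lowers the ratios. The same 82 CTCF and 119 Hi-C ends at Olfr94 gave 13.9 as a bin and 10.2 as a region. Counts of regions and of bins are therefore not on the same scale. First by its lower bound after correction for GC was a region of 1847 bp inside Cfap57, a gene for a cilium protein, at chr4:118565373-118567219, with 116 CTCF and 184 Hi-C ends, a ratio of 9.30 (5.77 to 13.2) in NCC and 5.004 in ESC. A region in Rapgef1, a guanine nucleotide exchange factor, had 223 CTCF ends and 6.93, with 3.93 in ESC. The region inside Ncs1 had 7.01 and 6.98, the region at Kdm3b 5.62 and 2.72, the region near Olfr94 10.2 and 6.19, and the region with the motifs near Slc7a12 6.38 and 5.30. These loci were thus high in both cell types also where both libraries had anchors. Over all such regions, those with a core motif differed from those without by -0.25 on the log2 scale, and by 0.01 within 20 classes of GC content.

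Over 100 kb, 13885 bins had at least 1000 Hi-C ends, of which 350 (2.52%) were enriched and 1701 (12.3%) depleted. The ratio went from 0.388 to 1.77 between the 5th and the 95th percentile. Enriched bins had a mean GC content of 40.5% and depleted ones 46.4%, and 55.7% of the enriched bins were without a start site, against 43.4% of all. Across bins, Spearman's rho of the ratio with GC content was -0.48 in NCC, -0.41 in ESC and -0.71 in FGFR1 HiChIP, and rho between NCC and ESC was 0.39. Bins that are neighbours share anchors and domains, so these are descriptions only.

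The most depleted 100 kb bin, chr7:78600001-78700000, overlaps Ntrk3, the receptor of neurotrophin-3, and had no CTCF end where 94.4 were expected. The upper bound of its ratio was 0.101, and in ESC 48 ends gave 0.546. The bin with the start of Gucy2c, an intestinal guanylate cyclase receptor, also had no CTCF end against 61.7, with 1.09 in ESC. The bin with Rpl28 and Il11 had 20 against 286, a ratio of 0.0699, and the bin with Laptm5 and Matn1 had 22 against 262, a ratio of 0.0841. These had 0.5498 and 0.533 in ESC and 0.441 and 0.437 in FGFR1 HiChIP, so that they were low in all 3 comparisons.

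Enriched 100 kb bins held 0.697 protein-coding start sites on average, against 1.21 in all bins compared. The highest, chr6:103600001-103700000, overlaps Chl1, a neural cell adhesion gene, and had 284 CTCF ends against 51.7, a ratio of 5.49 (4.31 to 6.84). It was 10.6 in ESC and 3.51 in FGFR1 HiChIP. The next, 2678 bp from the start of Pou2f1, had 4.27, with 1.73 in ESC. The bin with Sfi1, which holds 1544 CTCF and 9947 Hi-C ends, had 3.13 with 3.08 in ESC. All 10 highest bins were also above 1 in ESC and in FGFR1 HiChIP.

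Gene lists were read in the bins of their start sites, beside 9.76% enriched and 22.9% depleted and a median ratio of 0.843 over all 14254 protein-coding start-site bins compared. Of the genes for CTCF, cohesin and their partners, all 15 bins were compared, with 3 enriched, 3 depleted and a median of 0.818. The enriched ones were Ctcf itself, with 76 ends against 34.9 (ratio 2.18), Nipbl, the loader of cohesin, with 43 against 12.5 (3.45), and Esco2, a cohesin acetyltransferase, with 37 against 11.4 (3.24). Rad21 and Stag1, both cohesin subunits, had no CTCF end at their starts where 14.8 and 20.5 were expected, and no CTCF anchor midpoint in the bin. Over 30 kb their ratios were 1.07 and 1.19, while Ctcf, Nipbl and Esco2 had 1.92, 2.66 and 1.65. In ESC, Stag1 had 3.48 and Ctcf 0.588.

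The retinoic acid list was split. Of 21 genes, 19 bins were compared, with 4 enriched, 6 depleted and a median of 0.929. Stra8, a gene induced by retinoic acid in germ cells, had 161 ends against 38.9, a ratio of 4.14 with 2.49 over 30 kb and 3.42 in ESC. Aldh1a2, which makes retinoic acid, had 35 against 11.3, a ratio of 3.09 with 4.16 in ESC. The nuclear receptor genes Nr2f1 and Nr2f2 had 2.41 and 2.03, with 2.44 and 3.04 over 30 kb and 1.401 and 0.564 in ESC. Crabp2, a carrier of retinoic acid, had no CTCF end against 111, and Stra6, the receptor for retinol-binding protein, none against 61.2. Over 30 kb these were 0.333 and 0.202, and Rarg, a retinoic acid receptor gene, had 0.238 in the bin and 0.727 over 30 kb.

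Of the pluripotency genes, 21 bins were compared, with 7 enriched, 5 depleted and a median of 0.940. Pou5f1, the gene of Oct4, had 88 CTCF ends against 43.7, a ratio of 2.01 with 0.576 in ESC. Sox2 had 32 against 12.3, a ratio of 2.61 with 0.419 in ESC, and Sall4 86 against 35.8, a ratio of 2.40 with 0.2496 in ESC. Klf5, Dppa5a, Prdm14 and Tdgf1 were the other enriched genes, with 2.22 to 3.52. None of the 7 was enriched in ESC, and over 30 kb they were between 0.890 and 1.73 in NCC. Of all NCC-enriched bins compared in both cell types, 18.5% were enriched in ESC, so that few of 7 would be at that share. At Pou5f1, Sox2 and Sall4, Hi-C had 1273, 529 and 1093 ends in ESC against 881, 247 and 722 in NCC. CTCF HiChIP had 43, 13 and 16 ends there in ESC against 88, 32 and 86 in NCC, so that both parts of the ratio differed. Among the 7, Klf5 alone did not have more Hi-C ends in ESC (180 against 189). The difference between the cell types was not tested.

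Of the genes of neural progenitors and neurons, 21 bins were compared, with none enriched and 3 depleted (Zic1, Dll1 and Gbx2). Their median was 1.24, and 7 were enriched after division by GC class. By that rule 2626 of all 14254 protein-coding start-site bins were enriched, as were 7 of 21 pluripotency bins and 8 of 29 Hox bins. Sox1, a gene of the early neural plate, had 62 ends against 32.4, a ratio of 1.92, Lhx2 1.86 and Pax7 1.24. Of the mesoderm and endoderm genes, 14 bins were compared, with 1 enriched, 6 depleted and a median of 0.318. Gata4, Sox17, Tbx6, Kdr and Cer1 had no CTCF end against 10.2 to 54.0 expected, and Hand1 had 0.262. Mesp1, a gene of early mesoderm, was the enriched one, with 85 ends against 19.9, a ratio of 4.27, a core motif in its bin and 0.904 in ESC. Its ratio over 30 kb was 1.31 in NCC. The 5 genes without ends also had no CTCF anchor midpoint in their bins. Over 30 kb Kdr had 1.01, and the others of these genes had 0.198 to 0.402.

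The Hox genes, which lie in 4 clusters and share bins, had 29 bins compared, with 6 enriched, 6 depleted and a median of 0.777. Hoxd13 had 36 ends against 8.49, a ratio of 4.24 with 6.595 in ESC. Hoxb9 had no end against 34.6, while the bin of Hoxb6 had 2.70, and over 30 kb these were 1.34 and 1.33. Of the imprinted genes, 17 bins were compared, with 2 enriched (Gnas, 2.06, and Nespas, 2.44) and 3 depleted. H19, at the imprinted locus controlled by CTCF, had 48 ends against 40.2, a ratio of 1.20, and Igf2 no end against 13.997 with 4.72 in ESC. Over 30 kb Igf2 had 1.44 in NCC. Of 68 bins of ribosomal protein genes 8 were enriched and 12 depleted, and of 232 bins of odorant receptor genes 13 and 40.

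Contact distances differed little between CTCF HiChIP and Hi-C. Read pairs inside an anchor made up 20.4% of CTCF HiChIP and 19.8% of Hi-C, a log2 ratio of 0.04. Read pairs 20 to 50 kb apart made up 7.98% against 9.05%, a log2 ratio of -0.18 and lower on 19 of 19 autosomes. From 1 to 2 Mb they made up 3.27% against 2.87%, a log2 ratio of 0.19 (0.17 to 0.20) and higher on 19 of 19 autosomes. The share between 100 kb and 1 Mb, where most loops of CTCF and cohesin are known to lie, differed by -0.03 (-0.04 to -0.03), and the inter-chromosomal share by 0.09 (0.09 to 0.10). CTCF HiChIP of NCC thus had a lower share of contacts from 20 to 500 kb and a higher one from 0.5 to 50 Mb.

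At matched GC content the excess of long contacts was much smaller. With shares taken within pairs of GC classes of both ends, the log2 ratio from 1 to 2 Mb was 0.00, that from 2 to 5 Mb went from 0.18 to 0.02, and that from 20 to 50 kb from -0.18 to -0.09. The inter-chromosomal difference went to 0.05. FGFR1 HiChIP, which shares the Hi-C library, had 0.32 from 1 to 2 Mb and 0.04 at matched GC content. In ESC, without matching, the classes from 20 kb to 50 Mb and the inter-chromosomal class were all negative, with -0.28 at 20 to 50 kb and -0.05 at 1 to 2 Mb, and read pairs inside an anchor had 0.44. At matched GC content the ESC values were -0.18 at 20 to 50 kb, -0.07 at 1 to 2 Mb, 0.03 between chromosomes and 0.29 inside an anchor. Limiting Hi-C to pairs of CTCF anchors turned the NCC values for 100 kb to 1 Mb and for read pairs inside an anchor to 0.13 and -0.56.

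**Figure D4:**
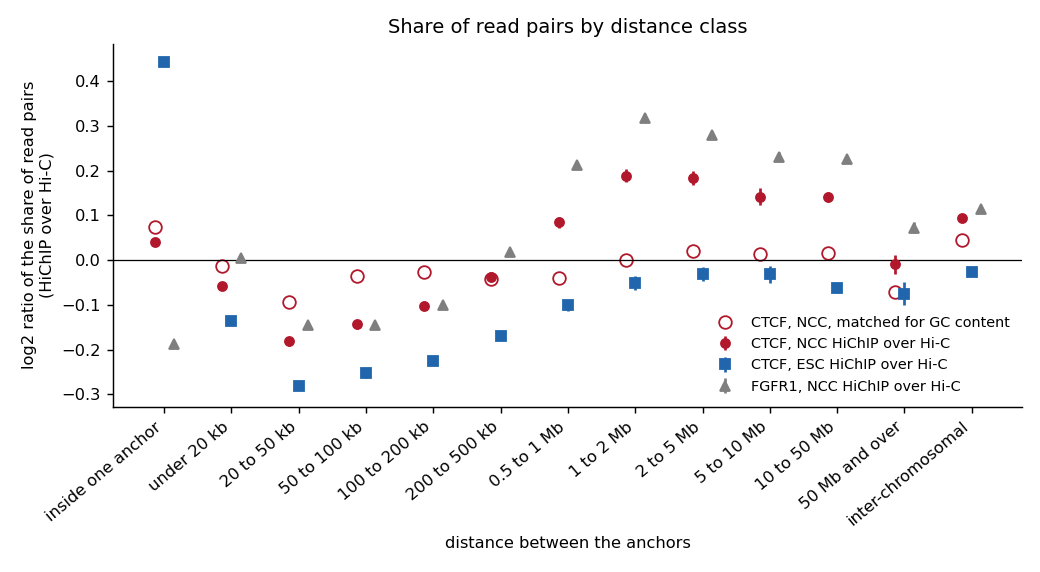
Log2 ratio of the share of read pairs in HiChIP over Hi-C (vertical axis) by distance between the anchors, with 95% counting intervals, mostly smaller than the symbols. CTCF HiChIP of NCC goes from -0.18 at 20 to 50 kb to 0.19 at 1 to 2 Mb, and to 0.00 there at matched GC content (open circles). CTCF HiChIP of ESC, without matching, is below 0 in all classes outside an anchor.

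Where both ends lay at core motifs, CTCF HiChIP had more convergent pairs than Hi-C. Of 1128 read pairs 50 kb to 2 Mb apart whose anchors each held motifs of a single orientation, 472 were convergent, 511 tandem and 145 divergent in CTCF HiChIP. The convergent share was 41.8% (39.0 to 44.7%) against 36.0% (35.5 to 36.6%) in Hi-C, a log2 ratio of 0.22 (0.11 to 0.32). The divergent share was 12.9% (11.03 to 14.9%) against 17.3%, a log2 ratio of -0.43 (-0.65 to -0.21). There were thus 3.26 convergent pairs to a divergent one in CTCF HiChIP and 2.08 in Hi-C. In ESC the convergent share was 39.1% against 33.4%, a log2 ratio of 0.23 (0.11 to 0.34). In FGFR1 HiChIP of NCC it was 39.3%, a log2 ratio over Hi-C of 0.13 (0.04 to 0.21), so that it was also above Hi-C.

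**Figure D5:**
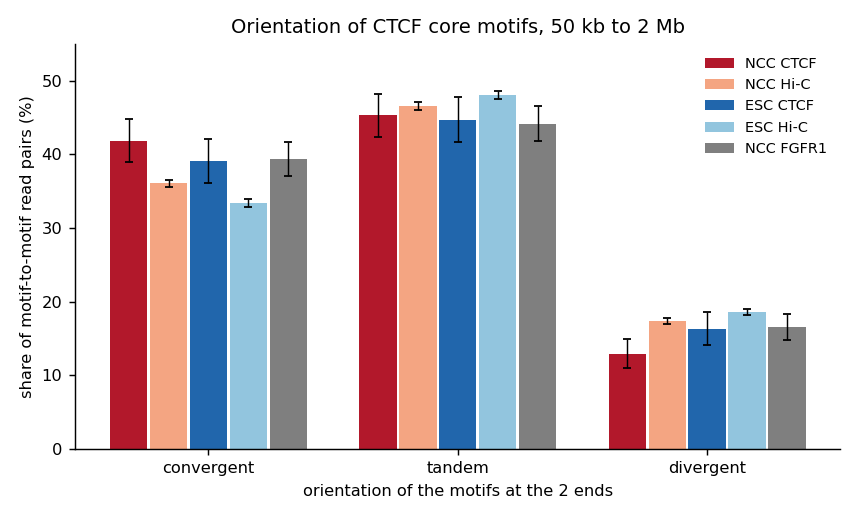
Share of motif-to-motif read pairs 50 kb to 2 Mb apart (vertical axis, percent, with 95% Wilson intervals) that join convergent, tandem and divergent core motifs, in 5 pooled libraries. Convergent pairs make up 41.8% in NCC CTCF HiChIP and 36.0% in NCC Hi-C, divergent pairs 12.9% and 17.3%.

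In NCC the difference in the convergent share was beyond counting error in both distance classes below 500 kb, and within it above. The convergent share was 43.2% against 37.4% from 50 to 200 kb, 42.7% against 34.8% from 200 to 500 kb, and 35.0% against 33.4% from 500 kb to 2 Mb, where 163 read pairs of CTCF HiChIP gave a 95% interval from 28.1 to 42.6%. FGFR1 HiChIP had 42.8% from 50 to 200 kb, a log2 ratio over Hi-C of 0.19 (0.08 to 0.30). In ESC the share from 500 kb to 2 Mb was 39.0% in CTCF HiChIP against 28.8% in Hi-C, a log2 ratio of 0.44 (0.15 to 0.72). In NCC, over all pairs from 50 kb to 2 Mb, interactions with a score of at least 2 had a higher convergent share. It was 59.8% of 378 read pairs in CTCF HiChIP and 38.6% of 26353 in Hi-C, whose deeper library reaches this score more often. Read pairs of NCC with a motif at 1 end only also pointed ahead of the motif more often than behind it. Their share was 60.6% (60.0 to 61.1%) in CTCF HiChIP, 58.5% in Hi-C and 60.0% (59.6 to 60.4%) in FGFR1 HiChIP. Motif-to-motif pairs were rare in NCC, with 0.347% of CTCF HiChIP pairs from 50 kb to 2 Mb and 0.491% of Hi-C pairs. CTCF HiChIP thus had a lower share of such pairs and a higher convergent part among them. Its anchors held 38.6% of the core motifs and those of Hi-C 59.8%, and the part of this in the lower share was not tested.

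Single contacts were shallow. Of all pairs of 10 kb bins 20 kb to 2 Mb apart, 587 had 5 or more CTCF read pairs, with at most 15, and 551 (93.9%) of these, which were picked for their CTCF counts, had at least 2 times the Hi-C share. The exact interval lay above 1 at 316 (53.8%). The median span of the 551 was 40 kb, and 224 of them (40.7%) had a core motif at an end, against 41.6% of all 587. Motifs at both ends were found at 37 of the 587 and at 31 of the 551, of which 14 were convergent. The pair with the most read pairs joined the surroundings of Ifitm3, an interferon-induced gene, and a motif-bearing bin 40 kb away at chr7:141040001-141050000. It had 15 read pairs against 2.68 expected, a ratio of 5.596 (1.84 to 14.2), and 2.75 over windows of 30 kb. In ESC it had 10 CTCF read pairs. The motif, on the minus strand and so pointing back towards Ifitm3, is shown here.
Ifitm3 contact, chr7:141048427-141048438, minus strand: ttagaatggCCACCAGGTGGCgccgtagac
The contact of the Wnt7a start with a bin 130 kb away near Fbln2 had 11 read pairs against 4.27, with 11 in ESC, and its motif faces Wnt7a, a secreted signal of neural development.
Wnt7a contact, chr6:91286848-91286859, plus strand: gtggcacgcCCAGTAGGGGGCtcttccaga
Its ratio was 2.58 (0.714 to 6.86) and 1.54 over windows of 30 kb, so that it did not differ from Hi-C beyond counting error. The contact of the Plcd3 bin with the start of Hexim2, 30 kb away, had 10 CTCF read pairs and 1 Hi-C read pair, but 12 and 111 over windows of 30 kb, a ratio of 2.18. A contact inside Shroom3 had 11 CTCF read pairs and no Hi-C read pair, with a lower bound of the ratio of 20.2, and 3.56 over windows of 30 kb. All 10 contacts with the most CTCF read pairs had a ratio from 1.28 to 4.52 over those windows.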

How the data were processed

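Hi-C and HiChIP libraries made with Tn5 transposase were aligned to mm10 by the authors with HiC-Pro, which keeps valid pairs without duplicates, and anchors were called with hichipper from all reads of each sample (versions are not given in the sources used here). Each deposited score is a count, the number of read pairs that join an anchor to another or to itself, with both replicates merged by the authors and no filter on q. All anchors started and ended at a GATC site of GRCm38 (within 4 bp), checked before sequence and GENCODE vM21 annotation were used.

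From these counts, ends were placed at anchor midpoints in bins of 10 kb or 100 kb, and shares of ends were divided. Bins with at least 100 (100 kb: 1000) Hi-C ends were compared, with exact binomial intervals (miss rate 0.1%) on read pairs. No test, covariate or batch term was possible with 1 library per group. A CpG island was a 500 bp window with at least 55% GC and observed over expected CpG of at least 0.65. Python 3.11.15 with NumPy 2.4.6, pandas 2.3.3 and SciPy 1.17.1 was used. The call rule was tried on counts simulated from the Hi-C bins without anchor calling, so that errors from anchors were not covered.

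Named were the 20 enriched loci with the highest lower bound, the 10 bin pairs with the most CTCF read pairs at 2 times the Hi-C share or more, the 10 most depleted 100 kb bins, and of each list the genes called and those with the most CTCF ends, from which the text gives a selection. Some of these are not reported here. The enriched 100 kb bins, the loci shared with ESC and the regions with anchors in both libraries were added after values were seen. The comparison, its members and the lists were chosen with earlier results of these data known. Settings tried are the score minimum, anchors, chromosomes, bin size, minimum, scaling, fold, motif, distance and GC content.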

Additional observations from a re-analysis of the deposited data

Results flagged for a closer look

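In 6 distance classes CTCF HiChIP over Hi-C went opposite ways in NCC and ESC, each beyond its counting error. The log2 ratio in NCC was 0.0848 at 0.5 to 1 Mb, 0.19 at 1 to 2 Mb, 0.18 at 2 to 5 Mb, 0.14 at 5 to 10 Mb, 0.14 at 10 to 50 Mb and 0.0938 between chromosomes. In ESC these were -0.10, -0.05, -0.03, -0.03, -0.06 and -0.03. The difference between the cell types was not tested, since each has 1 pooled library per assay. At matched GC content the NCC values were -0.04, 0.00, 0.02, 0.01, 0.02 and 0.05, and the ESC values -0.10, -0.07, -0.04, -0.03, -0.06 and 0.03. Matched in this way, the class from 0.5 to 1 Mb was negative and the inter-chromosomal class positive in both cell types.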

How the results depend on the processing

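Of 51 alternative values, 18 stayed within the counting interval or 1.5 times the count, 26 moved and 7 turned their direction, and 8 of the 51 were added after the data were seen (those with GC classes for bins and distances, with the 30 kb ratio, and with regions). No paired analysis was possible because both replicates of each group are merged in the deposited counts, which also leaves no replicate to leave out. Limits are therefore the anchors called in each library, GC content and the depth of CTCF HiChIP, with a median of 10 ends a bin. The cause of changes was not tested unless the setting itself gives it.

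For read pairs 100 kb to 1 Mb apart (-0.03), the log2 ratio was -1.65 with scores of at least 2, 0.13 with Hi-C limited to CTCF anchors, -0.0178 without the 1% strongest anchors and -0.0220 between different anchors. For inter-chromosomal read pairs (0.09) it was 1.298 with scores of at least 2, 0.27 with Hi-C limited to CTCF anchors, 0.10 between different anchors and 0.0460 within GC classes. For read pairs inside an anchor (0.04) it was 0.65 with scores of at least 2, -0.56 with Hi-C limited to CTCF anchors, 0.0238 without the strongest anchors and 0.0733 within GC classes.

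Enriched bins (10137) numbered 15784 with at least 50 and 4520 with at least 200 Hi-C ends, 20059 with the median ratio scaled to 1, 1611 with Hi-C limited to CTCF anchors, 5735 at 3-fold and 4103 when the 30 kb ratio also had to reach 2. Depleted bins (29450) numbered 16048 at 20 kb, 17018 with the median ratio scaled to 1, 4901 with an anchor midpoint in both libraries and 14303 with Hi-C limited to CTCF anchors.

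Core motif bins against others (0.15) had 0.30 within GC classes, -0.0260 with an anchor midpoint in both libraries, -0.0124 with the looser motif, which 49.3% of bins hold, -0.25 over regions with an anchor in both libraries and 0.0106 over these within GC classes. Start-site bins against others (0.16) had 0.36 within GC classes, 0.17 between different anchors, -0.0518 with an anchor midpoint in both libraries and -0.0373 without CpG islands. The convergent share (0.22) had 0.0871 with the looser motif and 0.63 with scores of at least 2.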
